A study of Mus musculus with 9 samples.

Results

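The genes described here are 10 antiviral effectors, chosen by symbol as a list: the Mx GTPase genes Mx1 and Mx2, the membrane protein genes Ifitm1, Ifitm2 and Ifitm3, the tetherin gene Bst2, the viperin gene Rsad2, the cytidine deaminase gene Apobec3, and Ifi44 and Ifi44l. Of the 10, 9 were analysed among the 21951 genes of the count table, and 7 had enough reads to be among the 11295 genes tested. Mx2, annotated as a polymorphic pseudogene in GENCODE M21 on chromosome 16 from 97535308 to 97560900, was not analysed here, and all 21951 genes of the table are protein-coding in that release. RNA was sequenced from BV2 cells, a mouse microglial line immortalised with a retrovirus that carries oncogenes, so all groups share 1 transformed line, labelled wild type. Control cells (n = 3) received the vehicle HP-β-CD, a cyclodextrin, and no radiation. Irradiated cells (n = 3) were exposed once to 10 Gy of X-rays, 30 min after the same vehicle was added. Triol-treated cells (n = 3) were exposed in the same way, 30 min after 10 µM of the steroid 5α-androst-3β, 5α, 6β-triol. All 3 titles of that group name this compound, whereas its treatment labels read 7β in replicate 2 and 8β in replicate 3. No group received triol alone, and the interval between radiation and RNA extraction was not given in the sources used here.

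These proteins act on viruses after type I interferon has reached a cell. The interferon receptor passes its signal through JAK kinases to a transcription factor complex that binds interferon-stimulated response elements in promoters. Mx proteins trap incoming viral nucleoproteins, IFITM proteins hinder fusion of virus with endosomal membranes, tetherin holds budding particles on the cell surface, viperin makes a chain-terminating nucleotide from CTP, and APOBEC3 deaminates retroviral DNA. Many inbred mouse strains carry defective copies of both Mx genes. Microglia express many of these genes at a low level and induce them in viral infection, injury and ageing.

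Libraries held 13879062 to 18944051 counts. Of 14 microglial marker genes, 13 or 14 had reads in each group, and their summed level in RPM (reads scaled to the library's total count) was 2624 to 2759 in the controls, 2025 to 2103 after radiation and 2039 to 2086 with triol. Sall1, a defining microglial gene, had 1 read in the triol-treated libraries and 0 elsewhere. Hepatocyte markers (20 genes) summed to 5.59 to 7.34, 4.94 to 8.22 and 15.8 to 17.7 RPM, and neuron markers (8 genes) to 0.129 to 0.847, 1.22 to 2.21 and 2.69 to 3.33 RPM in the same order. Fibroblast markers (6 genes) reached at most 2.11 RPM, astrocyte markers (8 genes) 2.59 with Aqp4 and Sox9 at 0 in all libraries, and lymphocyte markers (7 genes) 1.64 with Cd3e and Ncr1 at 0. Oligodendrocyte markers (8 genes, with Olig2 at 0) summed to 34.1 to 45.6 RPM over all libraries. Endothelial markers (6 genes, with Cldn5 at 0) summed to 46.0 to 55.6 RPM in the controls. Their sums were 61.1 to 69.8 RPM after radiation and 66.0 to 77.2 with triol. Most of the oligodendrocyte sum came from Cnp, and most of the endothelial sum from Vwf. In counts scaled to library size after TMM normalisation (CPM), group means of Cnp were 31.3, 34.8 and 33.7 in the same order. Those of Vwf were 51.9, 63.1 and 71.0 CPM. Among the neuron markers, Tubb3 had 0.0863, 1.70 and 1.86 CPM and made up most of their sum after radiation. Only 3 of the 8 neuron markers had reads in the irradiated group, against 8 in the controls and 8 with triol. The part of other cells in the results was not tested. Whether replicates are separate cultures is not said in the labels, and the p-values then reflect the spread of these libraries alone, which may be technical.

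Promoters of 8 of the 10 members were found in the RefSeq promoter table (GRCm38.p6), with 2 start sites for Apobec3, and were read from 250 bases before to 30 after the start. The core of the interferon-stimulated response element was searched on both strands as GAAA, NN and GAAA in a row, where N is any base. The promoters shown are those of viperin and tetherin, which rose with radiation, of the paralogs Ifitm3 and Ifitm2, of which only Ifitm2 passed the test, and the first start site of Apobec3. Each reads 5′ to 3′ along the gene, with matches to the motif in capitals. They lie at chr12:26456423-26456702 (minus strand), chr8:71537443-71537722 (minus), chr7:141010715-141010994 (minus), chr7:140955932-140956211 (minus) and chr15:79892158-79892437 (plus).
Rsad2: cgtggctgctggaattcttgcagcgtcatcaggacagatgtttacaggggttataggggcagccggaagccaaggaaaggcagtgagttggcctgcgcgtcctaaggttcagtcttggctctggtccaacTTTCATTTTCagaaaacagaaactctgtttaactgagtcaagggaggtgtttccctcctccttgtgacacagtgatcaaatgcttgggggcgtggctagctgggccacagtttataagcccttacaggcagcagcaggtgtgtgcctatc
Bst2: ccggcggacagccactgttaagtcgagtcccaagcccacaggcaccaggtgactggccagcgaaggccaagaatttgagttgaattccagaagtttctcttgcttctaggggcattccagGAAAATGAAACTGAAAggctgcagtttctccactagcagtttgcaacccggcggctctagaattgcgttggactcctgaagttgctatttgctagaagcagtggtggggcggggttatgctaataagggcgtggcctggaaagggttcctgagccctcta
Ifitm3: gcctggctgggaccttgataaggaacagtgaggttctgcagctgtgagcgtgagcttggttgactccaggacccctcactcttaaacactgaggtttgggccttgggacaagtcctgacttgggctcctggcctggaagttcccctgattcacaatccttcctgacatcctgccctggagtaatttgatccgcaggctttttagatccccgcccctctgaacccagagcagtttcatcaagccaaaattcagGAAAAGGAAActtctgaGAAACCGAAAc
Ifitm2: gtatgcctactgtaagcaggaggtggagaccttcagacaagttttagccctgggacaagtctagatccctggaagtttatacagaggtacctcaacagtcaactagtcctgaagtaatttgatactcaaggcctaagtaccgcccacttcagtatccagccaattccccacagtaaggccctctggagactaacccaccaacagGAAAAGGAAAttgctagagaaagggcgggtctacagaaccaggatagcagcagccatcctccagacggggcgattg
Apobec3: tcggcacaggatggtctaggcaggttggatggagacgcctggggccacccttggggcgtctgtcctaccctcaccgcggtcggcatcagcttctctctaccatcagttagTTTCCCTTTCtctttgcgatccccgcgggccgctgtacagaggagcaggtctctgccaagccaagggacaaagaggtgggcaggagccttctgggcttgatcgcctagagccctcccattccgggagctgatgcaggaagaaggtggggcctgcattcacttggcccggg
The Rsad2 window holds 1 match on the minus strand of the gene, from position −120. In Bst2, 2 matches from −130 and −124 overlap by 4 bases, so that 3 GAAA repeats follow each other. Ifitm3 has 2 matches, from 3 and 20 bases into the transcript, and Ifitm2 has 1, from −46, with the same 10 letters, GAAAAGGAAA, as the first match of Ifitm3. Apobec3 has 1 match from −140 at the first start site and 0 at the second. The windows of Ifi44, Ifi44l and Ifitm1 had 0 matches. Only the exact pattern was searched, so 0 matches does not exclude a near match. For Ifitm1, Bst2 and Ifi44 the bases after the start were not found in a GENCODE M21 transcript of the gene. These 3 windows may therefore not lie at the start of the gene as annotated there. A match was present in 3.28% of 32851 RefSeq promoter windows of this length, and 0.210% had 2 or more. The gamma-activated site core TTCNNNGAA was present in the windows of Bst2 (TTCCAGGAA from −136, overlapping the response element) and Ifitm3 (TTCTGAGAA from 14, between its 2 matches, overlapping the second), and in 7.83% of all windows. These are letter matches and were not tested for binding.

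The first comparison asks how radiation changed the effectors. Viperin transcripts rose 7.10-fold, Mx1 7.43-fold, tetherin 1.96-fold and Apobec3 1.14-fold, Ifi44 rose from near 0 reads, Ifitm2 fell 1.29-fold, and Ifitm3 did not pass the test. Ifi44 was tested only because its reads in the irradiated and triol-treated groups carried it past the filter, so it is counted apart. Of the other 6 tested members 4 were called up and 1 down by edgeR, where 22.1% of all tested genes were called up, 22.2% down and 44.3% in all. The members were chosen with earlier results of these data known, so this count is a description and no test of the list. The median log2 fold change of these 6 was 0.58, and that of all tested genes was 0.0067. In bulk RNA a change in the share of cells that express a gene and a change in RNA per cell cannot be told apart.

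**Figure D1:**
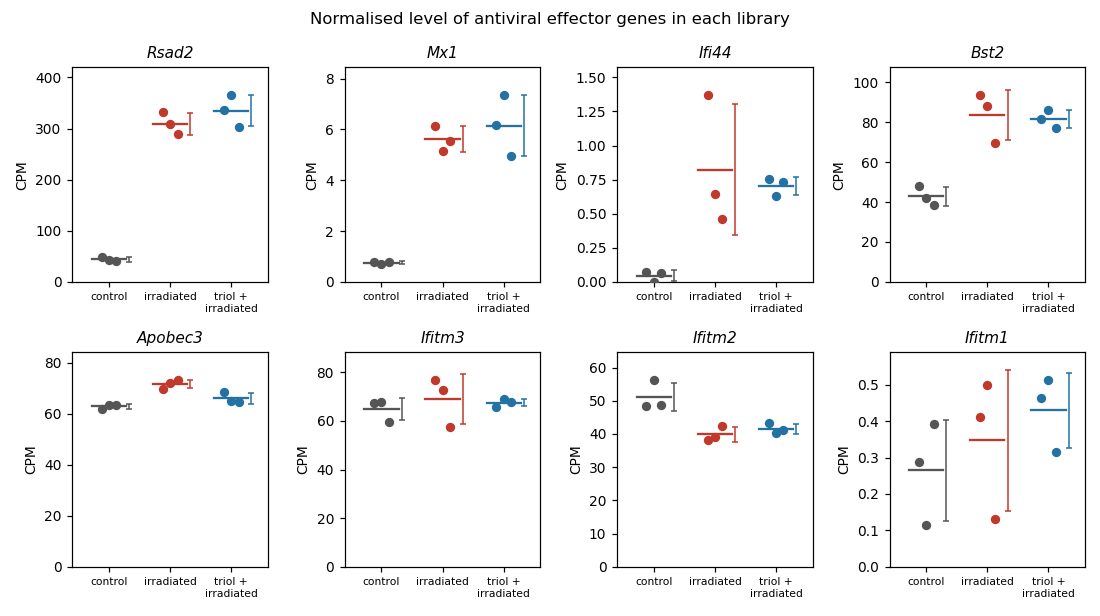
CPM (vertical axes, linear from 0) of 8 members in each library of the 3 groups. Points are libraries, horizontal lines group means and side bars ± SD (n = 3). Rsad2, Mx1, Ifi44, Bst2 and, by a small margin, Apobec3 are higher in all 6 irradiated libraries, with or without triol, than in all 3 control libraries. Ifitm2 is lower. Of all tested genes 25.2% were higher and 25.5% lower in every irradiated library without triol than in every control.

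Rsad2, which encodes viperin, lies on chromosome 12 from 26442746 to 26456452 (minus strand). Its level in CPM, the count scaled to library size after TMM normalisation, was 48.2, 42.5 and 40.5 in control replicates 1 to 3. In the irradiated libraries it was 332, 309 and 288 CPM, and in the triol-treated ones 337, 365 and 303. The control libraries lie far below all others, and irradiated and triol-treated libraries overlap. With radiation the mean went from 43.7 ± 4.02 to 309.7 ± 21.6 CPM (SD, n = 3), a 7.10-fold rise (log2 fold change 2.83, SE 0.10, edgeR adjusted p = 8.6e-08). Cmpk2, a nucleotide kinase gene whose product supplies the pyrimidine triphosphates that viperin converts, starts 12.8 kb from the Rsad2 start, and its 6.23 ± 0.920 CPM in the controls rose to 37.8 ± 4.05 (log2 2.61, SE 0.11, adjusted p = 1.2e-18). Ciao1, which takes part in inserting the iron-sulphur cluster that viperin needs, had a log2 fold change of 0.04 (adjusted p = 0.57).

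Mx1 lies on chromosome 16 from 97447035 to 97462907 (minus strand). It had 11, 12 and 12 reads in the control libraries. After radiation there were 90, 72 and 85 reads, and with triol 107, 129 and 94. Every irradiated library had more reads than every control library. The mean rose from 0.754 ± 0.0585 to 5.62 ± 0.510 CPM, by 7.43-fold (log2 2.89, SE 0.24, adjusted p = 2.9e-13). Of its possible 50-base stretches, 4.37% also occur in transcripts of other genes, Mx2 among them. RefSeq lists Mx1 of this assembly as a transcribed pseudogene, while GENCODE M21 lists it as protein-coding, and the reads measure RNA only. The dynamin superfamily GTPases outside the Mx genes served for comparison, and 0 of 7 rose and 2 fell with radiation (28.6% called, against 44.3% of all genes). Those that fell were Dnm2, which cuts endocytic vesicles (log2 −0.17), and Mfn2, which fuses mitochondria (−0.20).

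Bst2, which encodes tetherin, lies on chromosome 8 from 71534255 to 71537456 (minus strand). Control libraries had 47.9, 42.1 and 38.7 CPM, irradiated 93.5, 88.2 and 69.7, and triol-treated 81.5, 86.2 and 77.1. All libraries that received radiation lie above all controls, with irradiated replicate 3 the lowest of them. The mean rose from 42.9 ± 4.63 to 83.8 ± 12.5 CPM, by 1.96-fold (log2 0.97, SE 0.12, adjusted p = 0.00027).

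The 3 Ifitm genes of the list lie close together on chromosome 7. Ifitm2, on the minus strand from 140954837 to 140955987, had 48.5, 56.2 and 48.7 CPM in the controls, 38.2, 39.1 and 42.3 after radiation and 43.3, 40.3 and 41.1 with triol. Every control library lies above all others (25.5% of tested genes had all irradiated libraries below all controls). Its mean fell from 51.1 ± 4.36 to 39.9 ± 2.18 CPM with radiation, to a level 1.29-fold lower (log2 −0.36, SE 0.06, adjusted p = 9.7e-06). Ifitm3, on the minus strand from 141009586 to 141010770, encodes the member best known for blocking influenza virus entry. It had 67.3, 67.9 and 59.6 CPM in the controls, 76.7, 72.8 and 57.6 after radiation and 65.9, 68.9 and 67.8 with triol. The groups overlap, because irradiated replicate 3 was the lowest library of all while the other 2 irradiated libraries were the highest. The log2 fold change was 0.09 (95% interval −0.10 to 0.27, adjusted p = 0.46), and without irradiated replicate 3 it was 0.20 (adjusted p = 0.0049). Within a library, which needs no scaling, there were 1.39, 1.21 and 1.22 Ifitm3 reads per Ifitm2 read in the controls, 2.01, 1.86 and 1.36 after radiation and 1.52, 1.71 and 1.65 with triol. That ratio did not overlap between triol-treated and control libraries, and irradiated replicate 3 lay within the control range.

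Reads of Ifitm2 are hard to place. Of its exonic bases 40.9% overlap Gm45717 on the same strand, and 48.5% of its 50-base stretches occur in transcripts of other genes, Ifitm3 among them, against 10.0% for Ifitm3. Gm45717 itself had 3 reads in irradiated replicate 1 and 0 in every other library. How the counting treated shared reads was not given in the sources used here, and their part in the fall of Ifitm2 was not tested. Ifitm1, on the plus strand from 140967221 to 140969825, had 2 to 6 reads in a control library, 2 to 7 after radiation and 6 to 9 with triol, and did not pass the filter on low counts. The ratio of irradiated to control RPM was 1.36 (95% exact interval 0.594 to 3.18, counting error only), so ratios within that interval were not resolved at this depth. Among the 4 Ifitm genes outside the list, Ifitm6 alone was tested. It starts 7.15 kb from Ifitm3, and its mean of 20.5 ± 1.30 CPM in the controls fell to 15.2 ± 1.78 (log2 −0.44, adjusted p = 0.00014). Of 3 genes whose products are linked to the IFITM3 protein, the protease gene Zmpste24 rose (log2 0.16) and the palmitoyltransferase gene Zdhhc20 fell (−0.22), and the ubiquitin ligase gene Nedd4 had 1 to 5 reads in a group and was not tested.

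Apobec3, on chromosome 15 from 79891659 to 79915906 (plus strand), had 61.8, 63.3 and 63.5 CPM in control libraries and 69.8, 72.0 and 73.1 in irradiated ones. The groups are close but do not overlap, and 25.2% of all tested genes were higher in this sense. The rise was 1.14-fold (log2 0.19, SE 0.05, adjusted p = 0.0018). Apobec1, an RNA editing deaminase gene, had 91.7 ± 1.19 CPM in the controls and fell to 76.5 ± 1.99 (log2 −0.26, adjusted p = 6.3e-06).

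Ifi44 lies on chromosome 3 from 151730922 to 151749960 and Ifi44l from 151758737 to 151762892, both on the minus strand. Ifi44 had 1, 0 and 1 reads in the controls, 20, 9 and 7 after radiation and 13, 11 and 14 with triol. No control library reached any irradiated one. With only control and irradiated libraries fitted it did not pass the filter. The ratio of irradiated to control RPM was 19.6 (95% exact interval 5.04 to 168, counting error only). It was called by edgeR (adjusted p = 3.8e-05), with a fitted log2 fold change of 4.03 that depends on the treatment of the near-zero control counts. Ifi44l had 0 reads in all 9 libraries, which allows up to 0.0633 RPM in the controls, 0.0689 after radiation and 0.0559 with triol. Fkbp5, which encodes an immunophilin that binds both proteins, rose by 0.18 on the log2 scale (adjusted p = 0.0062).

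**Figure D2:**
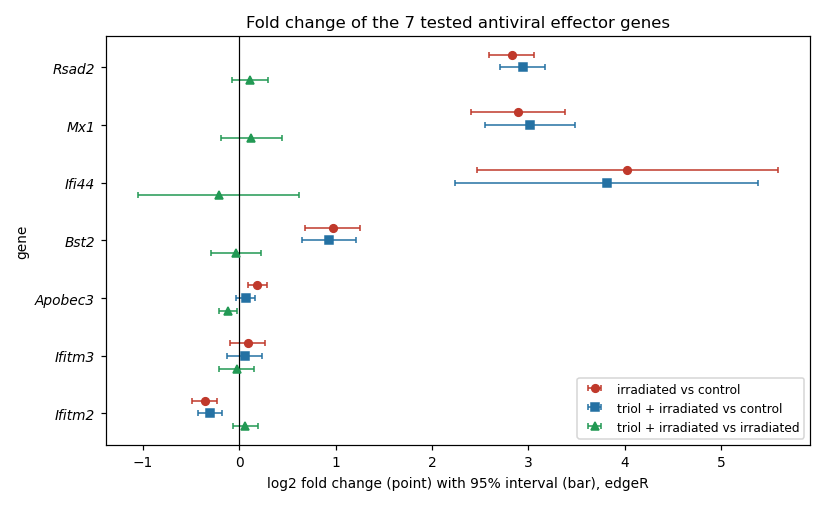
Log2 fold change (horizontal axis) of the 7 tested members in 3 comparisons, with 95% intervals from edgeR as bars. The 2 comparisons against control share the control libraries, and every interval for triol-treated against irradiated cells except that of Apobec3 (−0.22 to −0.02) includes 0.

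The second comparison asks whether triol given before radiation changed the effectors. For 0 of the 7 tested members did the difference from irradiated cells pass the threshold with edgeR or limma-voom, where edgeR called 0.106% of all genes. That share is 12 genes, of which 3 were hepatocyte markers, higher with triol. DESeq2 gave an adjusted p for Rsad2 alone (0.78) and none for the other 6. At an unadjusted p under 0.05 edgeR had 1 member, Apobec3, and 7.66% of all genes. It had 68.5, 64.8 and 64.6 CPM with triol, all below the 3 irradiated libraries, as for 5.88% of all tested genes. The log2 difference was −0.12 (95% interval −0.22 to −0.02, adjusted p = 0.54). The interval for Rsad2 ran from −0.07 to 0.30, for Bst2 from −0.29 to 0.22, for Ifitm2 from −0.07 to 0.19 and for Ifitm3 from −0.21 to 0.15. Those of Mx1 (−0.19 to 0.44) and Ifi44 (−1.05 to 0.62) were wider, with 247 and 36 reads in the irradiated libraries together. Differences inside these intervals were not resolved.

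The third comparison set triol-treated irradiated cells against the same controls as the first. Of the 6 tested members other than Ifi44, 3 were called up and 1 down, where 21.5% of all genes were called up, 21.7% down and 43.3% in all. The log2 fold changes were 2.94 for Rsad2 (SE 0.10, adjusted p = 6.9e-08), 3.02 for Mx1 (SE 0.23), 3.81 for Ifi44, 0.93 for Bst2 (SE 0.12) and −0.30 for Ifitm2 (SE 0.06). Apobec3 had 0.07 (95% interval −0.03 to 0.17, adjusted p = 0.26) and Ifitm3 0.06 (−0.13 to 0.24, adjusted p = 0.63). All 3 triol-treated libraries of Apobec3 still lay above the controls, as for 25.5% of all tested genes.

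Levels of different genes were compared as RPKM, CPM per kilobase of annotated exons, which understates Apobec3 with its 9454 exonic bases over 20 transcripts. In control cells Ifitm3 was highest at 95.8 ± 6.84 RPKM, followed by Ifitm2 (78.1 ± 6.66), Bst2 (47.5 ± 5.13), Rsad2 (10.1 ± 0.928) and Apobec3 (6.65 ± 0.100). Each of these neighbours in the order was separated in all libraries. Ifitm1 and Mx1, at 0.242 ± 0.128 and 0.199 ± 0.0155, overlapped, and Ifi44 was lowest at 0.0075 ± 0.0065. After radiation the order was Ifitm3 (102 ± 14.9), Bst2 (92.8 ± 13.8), Rsad2 (71.4 ± 4.98) and Ifitm2 (60.9 ± 3.33), of which Ifitm3 and Bst2 overlapped. Rsad2 thus stood above Ifitm2 in all irradiated libraries and below it in all control libraries. The level of Ifitm2 depends on how shared reads were counted, as 48.5% of its 50-base stretches occur in other genes. Its place relative to Rsad2 after radiation is therefore not secure. In triol-treated cells the order was the same, with Ifitm3 at 99.6 ± 2.27, Bst2 at 90.3 ± 5.03 and Rsad2 at 77.3 ± 7.15 RPKM.

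Genes of the same pathway were taken from lists, which were chosen with earlier results of these data known. The shares below therefore describe these genes and are not separate support. Of 40 tested interferon-induced antiviral effectors outside the list of 10, 39 rose with radiation (97.5%, against 22.1% of all tested genes) and 1 fell (2.5%, against 22.2%), with a median log2 fold change of 1.26 against 0.0067 for all genes. The gene of the 40 with the lowest control level (0.446 ± 0.164 CPM) rose too, but passed the filter on low counts only through the other groups. Slfn5, which encodes an interferon-induced member of the Schlafen family, rose most, from 1.13 ± 0.437 to 14.8 ± 3.42 CPM (log2 3.72, SE 0.22). Samhd1, which encodes an enzyme that removes the nucleotides retroviruses need, had the highest level, rising from 380.5 ± 8.32 to 467 ± 8.47 CPM (log2 0.29, SE 0.03). Of 11 signalling genes 5 rose (45.5%) and 2 fell (18.2%), set against the same shares of all genes, with a median of 0.38. The transcription factor genes Stat2, Irf9 and Irf7 rose by 0.38, 0.56 and 1.44, and Usp18, a negative regulator at the receptor, by 1.55. The receptor gene Ifnar1 fell by 0.31 and the kinase gene Tyk2 by 0.23, and Ifnar2 (−0.07), Jak1 (0.07), Irf3 (−0.08) and Socs1 (0.87) did not pass (adjusted p from 0.068 to 0.41).

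**Figure D3:**
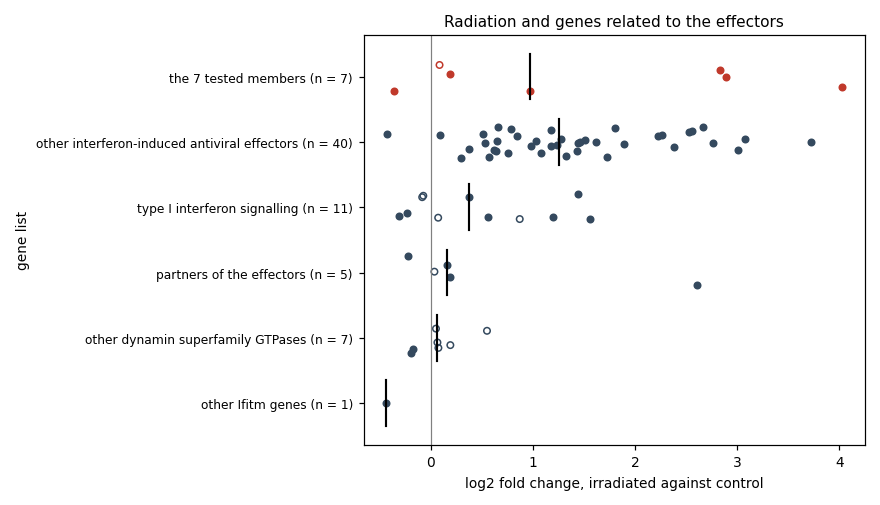
Log2 fold change of irradiated against control cells (horizontal axis) for the tested members and for lists of related genes. Each point is a gene, filled where edgeR called it and open where it did not, and black lines are medians. Of the 40 other effectors 39 lie above 0, while 5 of the 7 other dynamin superfamily genes were not called.

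Of 21 interferon genes 0 passed the filter and 16 had 0 reads in every library. Ifnb1, which encodes interferon β, had 0 reads in the control libraries, 4 to 7 per irradiated and 6 to 7 per triol-treated library. Against 3 counts over the control group its RPM was 6.17-fold higher in irradiated and 5.89-fold higher in triol-treated cells. These ratios leave out the counting error of the few reads, so they are not lower bounds. Ifnab had 0 control reads, 7 irradiated and 8 triol-treated ones, 2.54-fold and 2.36-fold higher in the same sense. Between triol-treated and irradiated cells edgeR called 0 of the 40 effectors and 0 of the 11 signalling genes, where it called 0.106% of all genes. At an unadjusted p under 0.05 there were 6 effectors (15%) and 2 signalling genes (18.2%), against 7.66% of all genes. The log2 difference was above 0 for 35 of the 40 effectors, with a median of 0.06, and the medians of the signalling genes and of all genes were −0.0054 and 0.0016. The share of all genes above 0 was not computed. The 40 effectors move together by library, with median deviations of 0.10 and −0.12 in irradiated replicates 1 and 3. The 35 are therefore not separate observations, and 0.06 is smaller than that spread.

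Genes of the table that lie within 100 kb of a member numbered 42, of which 26 were tested. Radiation raised 2 of them (7.69%, against 22.1% of all genes) and lowered 9 (34.6%, against 22.2%), and 42.3% were called in all, against 44.3%. One that rose is Cmpk2, and the other is Tmprss2, 3.78 kb from Mx2, which encodes a surface protease that activates viral spike proteins. Tmprss2 had 0 control reads and 8 to 18 per irradiated library. Against the same floor for the control group as used for Ifnb1, the RPM of Tmprss2 was 13.4-fold higher in irradiated cells. This ratio too leaves out the counting error of the reads, so it is not a lower bound. Around Bst2, Ano8 (−0.49), Pgls (−0.41), Slc27a1 (−0.32) and Dda1 (−0.15) fell. Near Apobec3, Pdgfb (−0.52) and Cbx6 (−0.20) fell. Cbx7, which shares 1.06% of the exonic bases of Apobec3 on the other strand, had −0.02 (adjusted p = 0.89). On chromosome 7, Ric8a (−0.30), Psmd13 (−0.12) and Ifitm6 fell along with Ifitm2.

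**Figure D4:**
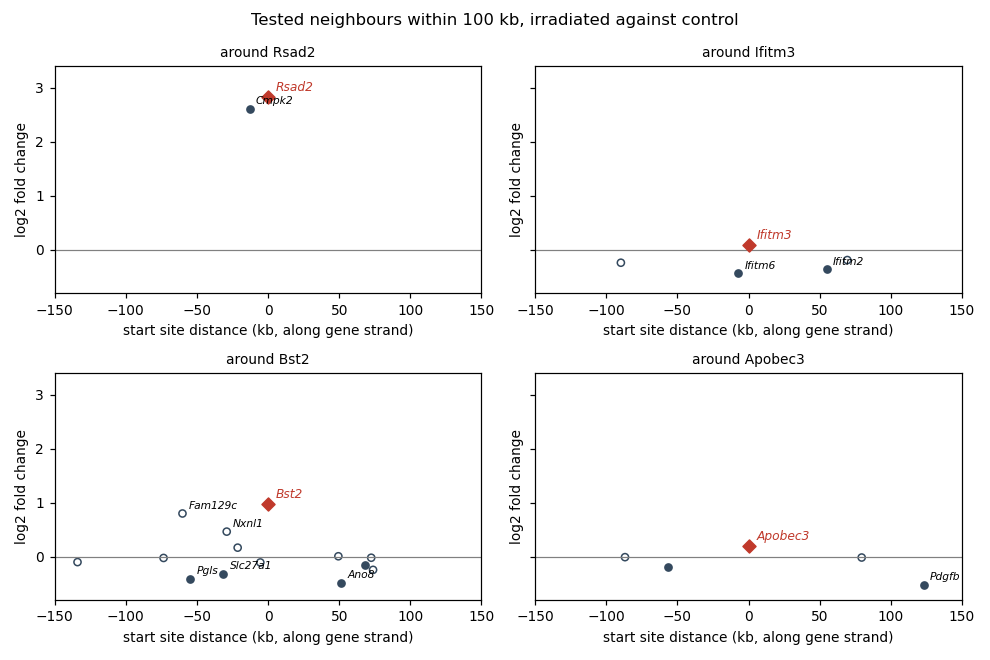
Log2 fold change of irradiated against control cells (vertical axis) for tested genes within 100 kb of 4 members, by the distance between start sites in kb along the member's strand. Red diamonds are the members, and neighbours are filled where called. Cmpk2 (2.61) sits beside Rsad2 (2.83), whereas the called neighbours of Bst2, Ifitm3 and Apobec3 all lie below 0.

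For each tested member the most similar of 11288 other genes was found by the root mean square difference, over the 9 libraries, of log2 CPM minus the control mean. For Rsad2 it was Ifit1, which encodes a protein that binds foreign RNA (difference 0.17, Pearson r 0.999), and for Mx1 it was Ifit3 (0.17, r 0.99). Those of Bst2, Ifi44 and Ifitm2 were Col18a1 (0.09, r 0.99), Cnga3 (0.23, r 0.98) and Trappc9 (0.04, r 0.97). Those of Apobec3 and Ifitm3 were Champ1 (0.03, r 0.94) and Cox19 (0.05, r 0.91). Each r is a description over the same 9 libraries in 3 groups, so that a shared step between groups and a shared order within them both enter it. For Ifitm3 the deviations from the irradiated mean (0.163, 0.0877 and −0.251 in replicates 1 to 3) were no smaller in size than its log2 fold change with radiation (0.0852).

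Within groups the order of libraries differed among the 7 tested members. Among irradiated libraries replicate 3 was lowest for 4 of the 7 (Rsad2, Bst2, Ifitm3 and Ifi44), replicate 1 for Apobec3 and Ifitm2, and replicate 2 for Mx1. In triol-treated cells replicate 3 was lowest for 4 (Rsad2, Bst2, Mx1 and Apobec3), replicate 2 for Ifi44 and Ifitm2, and replicate 1 for Ifitm3. In control cells replicate 3 was lowest for 3 (Rsad2, Bst2 and Ifitm3), replicate 2 for Mx1 and Ifi44, and replicate 1 for Ifitm2 and Apobec3. Rsad2 and Bst2 were thus lowest in replicate 3 of every group. The 40 other effectors were lowest in replicate 3 for 75.0% of genes in the controls, 82.5% after radiation and 80.0% with triol, where the shares over all tested genes were 35.8%, 34.4% and 34.3%. Their median deviation from the group mean in replicate 3 was −0.10, −0.12 and −0.07 (log2). The labels tie the equal numbers to no shared culture or day, and the cause was not tested. These spreads are small beside the changes of Rsad2, Mx1 and Bst2 with radiation, and as large as those of Ifitm3.

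**Figure D5:**
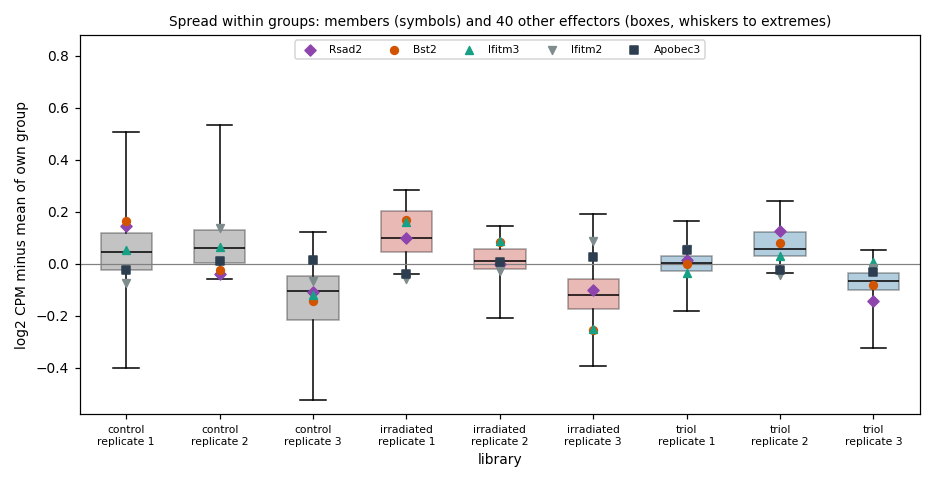
Log2 CPM minus the mean of the library's own group (vertical axis) for each of the 9 libraries. Boxes give the median and quartiles of 40 other interferon-induced effectors with whiskers to the extremes, and symbols give 5 members. The boxes of replicate 3 lie lowest in each group, with medians of −0.10, −0.12 and −0.07.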

How the data were processed

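The authors deposited unnormalised read counts for each gene and library. The submitters' processing notes name GRCm38 and, in no stated order, STAR 2.7.1a, featureCounts (Subread 1.6.3), FastQC and fastp 0.18.0. Annotation release, strand setting and handling of reads with several matches were not given in the sources used here, and GENCODE M21 (GRCm38) gave coordinates and exon lengths. Per the labels' protocols, the NEBNext Ultra RNA kit was used on Trizol-extracted total RNA. Groups came from the sample titles. Genes were filtered with filterByExpr and tested with the two-sided quasi-likelihood F test of edgeR 4.0.16 (R 4.3.3) with TMM, robust dispersion and 1 fit over 9 libraries, adjusted by Benjamini-Hochberg over 11295 genes, threshold 0.05. The fit was tested on simulated data. Alternatives were DESeq2 1.42.0, limma-voom (limma 3.58.1), upper quartile scaling, no filter, only the 2 groups compared, a replicate block and each library left out. The 10 members and the lists were chosen with earlier results of these data known. Named genes were all members, and from each related list the called gene with the largest change, the gene with the highest level and, in lists of up to 11, any tested gene, besides neighbours within 100 kb and nearest patterns. Libraries of a group differed by more than counting noise (chi-square per degree of freedom 2.00 to 3.01). Mx2 was not analysed here, and some genes of the related lists are not reported here by name. Intervals on counts cover counting error only.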

Additional observations from a re-analysis of the deposited data

How the results depend on the processing

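Over the 15 alternatives, the calls of Rsad2, Mx1, Bst2, Ifitm2 and Apobec3 with radiation stayed past the threshold in the same direction, with log2 fold changes of 2.77 to 2.89, 2.82 to 2.94, 0.88 to 1.09, −0.41 to −0.29 and 0.17 to 0.22, as did Ifi44 (3.44 to 4.44) in the 14 alternatives that tested it; with only the 2 groups fitted it did not pass the filter. Ifitm3 with radiation was 0.20 without irradiated replicate 3, past the threshold, and −0.0024 without irradiated replicate 1, and for triol against control it ran from −0.0125 (without control replicate 3) to 0.0857 with a library left out. Between triol-treated and irradiated cells no alternative called a member, DESeq2 giving an adjusted p for Rsad2 alone, and differences near 0 changed sign on leaving out 1 library. With each library left out, Mx1 ran from −0.0225 (without triol replicate 2) to 0.263, Ifitm3 from −0.148 to 0.0501 (above 0 without irradiated replicate 1 or, at 0.0078, replicate 2), Bst2 from −0.157 to 0.0459 and Ifi44 from −0.518 to 0.358, the last 2 above 0 without irradiated replicate 1. The count of all genes called there was 12, and 19 with DESeq2, 36 without a filter, 22 with only the 2 groups fitted, 22 with the replicate block and 6 to 19 with a library left out. The cause was not tested. The replicate block changed no call of a member, and same-numbered libraries did not deviate together over all genes (r from −0.05 to 0.04), so the numbers were not taken as pairs. Without the filter Ifitm1 had log2 values of 0.39 with radiation and 0.31 for triol against irradiated cells (adjusted p = 0.74 and 0.93). Depth limits Ifi44, Ifitm1, Mx1 and the interferon genes.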
